A study of Mus musculus with 8 samples.

Results

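The transcription factors that drive intestinal progenitors into the secretory lineages were examined in intestinal stem cells sorted for high Lgr5, from mice with a conditional deletion of Irf2 and from their controls. The genes were chosen by name and comprised 10 factors, namely Atoh1, Spdef, Gfi1, Neurog3, Foxa1, Foxa2, Foxa3, Xbp1, Creb3l1 and Creb3l4. They were found on the array through the RefSeq accession of each probe, which gave 11 probes for the 10 genes, with 2 for Foxa2, out of 21368 genes with a symbol. All 10 were well above background on all 8 arrays and entered the comparison, which spanned 25433 features.

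In the crypt, ATOH1 opens the secretory programme in cells that escape Notch signalling, and Notch target repressors such as HES1 hold it down in the neighbours that become absorptive. Downstream, SPDEF drives goblet and Paneth cell maturation, GFI1 keeps Paneth and goblet precursors from turning into enteroendocrine cells, and NEUROG3 is the switch for the enteroendocrine lineage. The forkhead factors FOXA1, FOXA2 and FOXA3 act in gut endoderm, in goblet and in enteroendocrine cells. XBP1, CREB3L1 and CREB3L4 are basic leucine zipper factors tied to the endoplasmic reticulum and to the secretory load of a cell.

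Control mice carried the floxed Irf2 allele (Irf2fl/fl) and the Lgr5-EGFP-Ires-CreERT2 knock-in, and the mice labelled Irf2_AhcKO carried both of these and the AhCre transgene as well. AhCre places Cre under a promoter that β-naphthoflavone switches on, so its activity is not limited to stem cells, and the reporter allele brings a tamoxifen-dependent Cre into both groups. All mice received β-naphthoflavone on 5 consecutive days, and cells were taken 1 month later. Each group had 4 samples, 1 array per sample, and the series text speaks both of 4 independent mice and of 2 biological replicates. That text leaves unsettled whether the spread behind the p-values is biological or technical. The Xist and Ddx3y levels given below bear on this for replicate 4 only. The deposited scanner data of 2 controls, replicates 3 and 4, are named with AhCre too, and the labels leave unsettled whether these mice carried it. No age was given in the sources used here.

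The arrays lay on 2 slides, which coincided with 2 scans, with replicates 1 and 2 of both groups on slide 1 and replicates 3 and 4 on slide 2. The share of spots passing the scanner's background test was 66.1% to 69.8% on slide 1 and 61.4% to 64.0% on slide 2, with 0 saturated. The number of arrays limits the precision. Of the features, 35.5% differed between slides. Irf2 itself stood at 0.64 ± 0.26 (SD, n = 4) in controls and at 0.91 ± 0.23 (SD, n = 4) in Irf2_AhcKO on the log2 scale, so the 1 probe that reads it was not lower in the arrays labelled as deleted. The position of that probe relative to the deleted part is not known here, and directions below are between labels. Of 14 Lgr5 stem cell markers, 13 were measured, Lgr5 among them on all 8 arrays, and Olfm4 was not found through an accession. Markers of other cells were detected in part. Of 12 leukocyte markers, 10 were measured, with Ptprc and Cd3e well above background on all 8 arrays, Cd8a on 5, Cd52 on 1 and Cd3g on 0. Of 7 mesenchymal markers, Col1a2 and Acta2 were above it on 8 arrays, Vim on 6, Col3a1 on 4, Pdgfra on 2 and Col1a1 and Dcn on 0. Of 4 endothelial markers, Kdr and Egfl7 were above it on 8, Pecam1 on 6 and Cdh5 on 0. Replicate 4 of both groups had high Xist (5.83 and 5.88) and low Ddx3y (-6.35 and -6.46). On the other 6 arrays Xist lay between -4.68 and -3.55 and Ddx3y between -0.45 and -0.14. Xist marks female cells and Ddx3y, a Y-linked gene, male cells, so each group held both sexes. Replicate 4 was therefore not a technical repeat of another array of its group.

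None of the 10 factors passed the test between genotypes. Levels are given as log2 of the processed signal minus the 75th percentile of the array, so that 1 unit is a doubling, and differences are Irf2_AhcKO minus control from limma with the slide as a term. A feature passed with a Benjamini-Hochberg adjusted p below 0.05 over all features, as 25 of 25433 (0.0983%) did. With the replicate number as a block the count was 0, with 3295 at an unadjusted p below 0.05, and it fell to 11, 0 and 6 without control replicates 1, 2 and 3 and to 0, 0, 1 and 3 without Irf2_AhcKO replicates 1 to 4. Of the 10 factors, 7 had a negative and 3 a positive difference, with a median of -0.16 against -0.0024 over all features, of which 50.5% were negative. Neurog3 and Creb3l4 had an unadjusted limma p below 0.05 (0.0471 and 0.0252), which is 2 of 10 factors where 11.7% of all features did so. In none of the 10 were the groups free of overlap, as they were in 3.85% of all features.

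**Figure D1:**
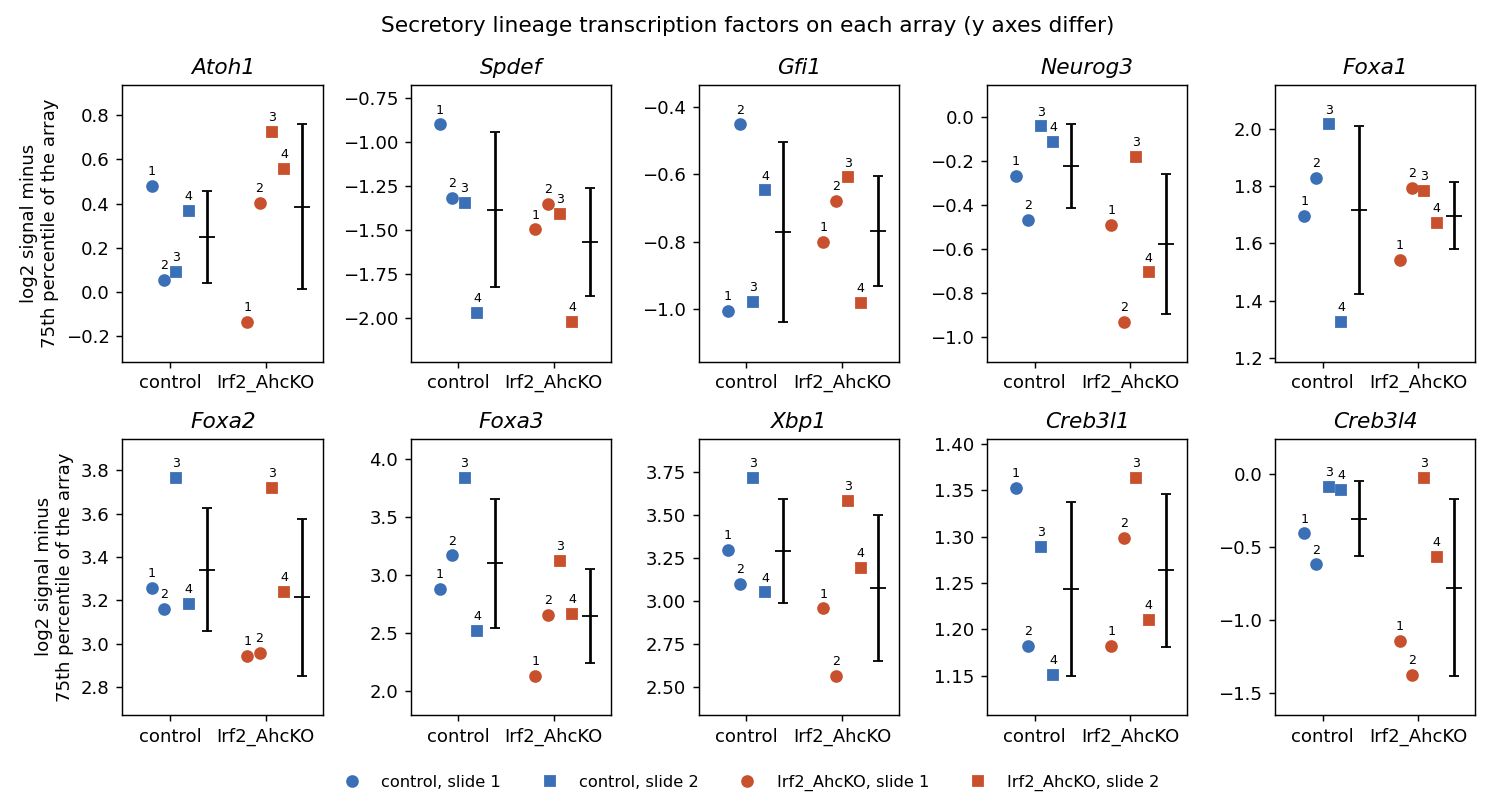
Log2 level of each of the 10 factors on each array (points, numbered by replicate; circles slide 1, squares slide 2), with the mean and SD of each group (n = 4) in black and a separate y axis for each gene. The groups overlap in every panel, and replicate 3 (slide 2) is the highest control for 6 genes and the highest Irf2_AhcKO array for 8.

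Atoh1, the factor at the head of the programme, had control levels of 0.48, 0.06, 0.09 and 0.37 for replicates 1 to 4, and Irf2_AhcKO levels of -0.14, 0.40, 0.72 and 0.56. The lowest and the highest array were thus both Irf2_AhcKO arrays, on different slides. The group means were 0.25 ± 0.21 and 0.39 ± 0.37 (SD, n = 4 each). The difference was 0.14 (SE 0.19, 95% interval -0.30 to 0.57, limma adjusted p = 0.778). It was -0.14 on slide 1 and 0.41 on slide 2, a gap of 0.55 that was the widest of the 10, and the test of that gap gave an adjusted p = 0.999 (limma, genotype by slide).

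The genes of the array whose profile over the 8 arrays lay closest to that of Atoh1, by the root mean square of the differences between mean-centred log2 levels, were Sgcb (0.138), Fam111a (0.147), Wdr76 (0.167), Poglut1 (0.182) and Ccdc151 (0.185). They were taken from 7022 genes that varied at least as much as Atoh1. Gfi1, Foxa1 and Creb3l1 varied less than Atoh1 and so could not be among them, and none of the remaining factors was. Foxa2 came closest of those that varied enough, at rank 474 with 0.324, and Foxa3 was the farthest, at 0.537. Creb3l1, left out for its small spread, lay at 0.236, Foxa1 at 0.338 and Gfi1 at 0.343.

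Spdef, which acts after Atoh1 in goblet and Paneth cells, stood at -0.90, -1.32, -1.35 and -1.97 in control replicates 1 to 4 and at -1.50, -1.35, -1.41 and -2.02 in Irf2_AhcKO. Replicate 4 was the lowest array of both groups, and the remaining 6 arrays lay between -1.50 and -0.90. The difference was -0.18 (SE 0.20, 95% interval -0.66 to 0.29, limma adjusted p = 0.718).

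Gfi1, the zinc finger repressor that separates the Paneth and goblet fates from the enteroendocrine fate, ranged from -1.01 to -0.45 in controls and from -0.98 to -0.61 in Irf2_AhcKO. The smaller range lay within the larger, and the difference was 0.003 (SE 0.16). The 95% interval from -0.36 to 0.37 shows how large a shift these 8 arrays would leave unresolved.

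Neurog3, the enteroendocrine switch, had control levels of -0.27, -0.47, -0.04 and -0.11 and Irf2_AhcKO levels of -0.49, -0.93, -0.18 and -0.71. On each slide both Irf2_AhcKO arrays were below both control arrays, but Irf2_AhcKO replicate 3 was above control replicates 1 and 2. The difference was -0.36 (SE 0.15, 95% interval -0.71 to -0.01, limma adjusted p = 0.423), and it was -0.34 and -0.37 on the slides and -0.23 with normexp background correction. The Neurog3 promoter window is printed here because Neurog3 had the most even difference between slides and because its window alone held CAGCTG, the 1 form of the E-box that was searched, which basic helix-loop-helix factors bind. It spans chr10:62132840-62133139 on the plus strand (GRCm38.p6, RefSeq), from 250 bases before to 50 bases after the start, with the hexamer in capitals at positions -165 to -160 from it.
Neurog3: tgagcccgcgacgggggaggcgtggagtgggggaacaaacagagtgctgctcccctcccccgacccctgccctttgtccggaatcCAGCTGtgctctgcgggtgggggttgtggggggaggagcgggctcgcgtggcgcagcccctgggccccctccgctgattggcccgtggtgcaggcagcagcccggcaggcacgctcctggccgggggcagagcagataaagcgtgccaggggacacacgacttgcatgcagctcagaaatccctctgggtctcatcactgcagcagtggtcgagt
The same hexamer stood in 16.3% of 32851 promoter windows of this length, and 1 of 14 windows of the secretory factors held it.

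Among the forkhead factors, Foxa1 ranged from 1.33 to 2.01 in controls and from 1.54 to 1.79 in Irf2_AhcKO. Its difference was -0.02 (SE 0.16, 95% interval -0.39 to 0.35, limma adjusted p = 0.97). Of the 14 windows, which covered 9 of the 10 factors and none for Creb3l1, only that of Foxa1 held an interferon regulatory factor element, searched on both strands as a pair of GAAA tetramers separated by 2 bases of any kind. That letter pattern stood in 3.44% of all windows. It is printed because Irf2 binds elements of this kind and because the same window held a forkhead site, TGTTTAC, found in 3.65% of all windows. The window spans chr12:57546062-57546361 on the minus strand (GRCm38.p6, RefSeq). Capitals mark both matches, each on the strand opposite to the one printed, the first at positions -227 to -218 and the second at -141 to -135, with no overlap.
Foxa1: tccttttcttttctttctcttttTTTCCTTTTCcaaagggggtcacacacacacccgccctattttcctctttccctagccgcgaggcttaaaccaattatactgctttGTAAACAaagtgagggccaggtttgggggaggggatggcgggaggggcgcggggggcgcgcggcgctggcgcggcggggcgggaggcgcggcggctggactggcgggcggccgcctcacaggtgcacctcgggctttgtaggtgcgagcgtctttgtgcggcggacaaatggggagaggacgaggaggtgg
The fourth pattern searched, TGACGTGG, bound by XBP1 and CREB3-type factors, stood in 0 of the 14 windows and in 0.676% of all. These are letter matches in short windows and say nothing about occupancy.

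Foxa2, a pioneer factor of endoderm, stood at 3.26, 3.16, 3.76 and 3.18 in control replicates 1 to 4 and at 2.94, 2.96, 3.72 and 3.24 in Irf2_AhcKO. Replicate 3 was the highest array of both groups. The difference was -0.13 (SE 0.16, 95% interval -0.51 to 0.26, limma adjusted p = 0.765). The second Foxa2 probe, which read a dimmer signal, gave -0.26 (SE 0.17), with -0.26 on slide 1 and -0.25 on slide 2, where the brighter probe gave -0.26 and 0.0046.

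Foxa3, known from goblet and enteroendocrine cells, varied most of the 10. Its control levels were 2.88, 3.17, 3.83 and 2.51 and its Irf2_AhcKO levels 2.13, 2.65, 3.12 and 2.66. Control replicate 3 and Irf2_AhcKO replicate 1 were the extremes, 3.26-fold apart in scaled linear signal. Without control replicate 3 the difference was -0.23, and without control replicate 4 it was -0.76. With all arrays the difference was -0.46 (SE 0.30, 95% interval -1.16 to 0.25, limma adjusted p = 0.558). Its residual SD of 0.49 around the fit, which had slide and genotype as separate terms, was larger than that of 90.1% of all features.

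Xbp1, the unfolded protein response factor that secretory cells need, is activated by splicing of its mRNA, which was not assessed here. Control levels were 3.30, 3.10, 3.72 and 3.05, and Irf2_AhcKO levels were 2.96, 2.57, 3.58 and 3.19. On slide 1 both Irf2_AhcKO arrays were below both control arrays, and on slide 2 they lay between them. The difference was -0.22 (SE 0.20, 95% interval -0.68 to 0.24, limma adjusted p = 0.662).

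Creb3l1, a membrane-bound factor cleaved by the site proteases, was the steadiest, with all 8 arrays between 1.15 and 1.36. Its residual SD of 0.10 was larger than that of only 16.7% of all features. The difference was 0.02 (SE 0.09), and its 95% interval from -0.18 to 0.22 was the narrowest of the 10.

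Creb3l4, its relative, had control levels of -0.41, -0.62, -0.09 and -0.11 and Irf2_AhcKO levels of -1.14, -1.37, -0.03 and -0.57. Irf2_AhcKO replicates 1 and 2 were below all controls, whereas Irf2_AhcKO replicate 3 was the highest of all 8 arrays. The difference was -0.47 (SE 0.17, 95% interval -0.87 to -0.08, limma adjusted p = 0.367), at -0.74 on slide 1, -0.20 on slide 2 and -0.27 with normexp background correction. Creb3l4 was also the 1 factor that differed between slides, where it was 0.69 higher on slide 2 (SE 0.17, limma adjusted p = 0.0182). For the 10 factors that is 1, where 35.5% of all features differed between slides.

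**Figure D2:**
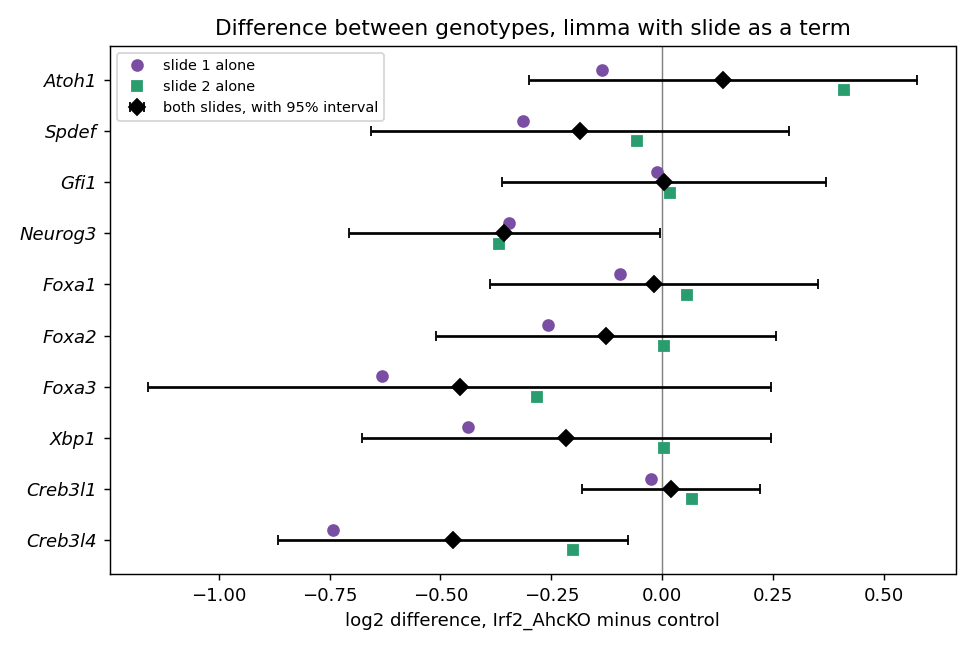
Log2 difference of each factor between Irf2_AhcKO and control (diamonds, with the 95% interval from limma), and the difference on slide 1 (circles) and slide 2 (squares) alone. The intervals of Neurog3 and Creb3l4 end below 0, those of the other 8 span 0, and every slide 1 value is below 0.

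The signs of the differences were not the same on the 2 slides, though the test of the gap, given below, passed for no factor. On slide 1 all 10 factors had a negative difference, where 51.9% of all features did, and on slide 2 the count was 4 of 10, where 49.2% did. Of the positive values on slide 2, Foxa2 (0.0046), Xbp1 (0.0045) and Gfi1 (0.017) lay near 0. Foxa1, Creb3l1 and Atoh1 stood at 0.056, 0.067 and 0.41. The 4 that were negative on both were Spdef, Neurog3, Foxa3 and Creb3l4, where 31.7% of all features were, and no factor was positive on both (the sign was shared by 4 of 10 factors and by 62.2% of features). The medians were -0.29 on slide 1 and 0.00 on slide 2. The test of the gap itself, genotype by slide in limma, passed for none of the 10, with an adjusted p = 0.999 for each, and for 0 of 25433 features (0%), of which 1094 (4.3%) had an unadjusted p below 0.05, as none of the 10 did. With 2 arrays per group on a slide, neither slide alone gave any adjusted call over all features (0% on each). At an unadjusted limma p below 0.05, slide 1 gave 1 of the 10, Creb3l4, where 9.99% of all features did, and slide 2 gave 0 of 10, where 5.26% did. The controls on slide 2 were those whose scanner data are named with AhCre, so slide and that naming cannot be told apart in controls. The arrays with high Xist also lay on slide 2.

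Within a slide, most factors lay on the same side of their slide mean on several arrays, in both genotypes. This description was chosen after the values were seen. The deviations of a gene over the 4 arrays of a slide cancel out, so the counts on these arrays are not independent. The comparison of replicates 4 and 3 restates them in part. On Irf2_AhcKO replicate 3 all 10 factors were above their mean over slide 2 (47.3% of all features were), by a median of 0.18. On Irf2_AhcKO replicate 4 of the same slide 9 of 10 were below it (47% of all features), by a median of -0.21. Control replicates 3 and 4 showed the same contrast, with 8 of 10 above (50.7% of all features) and 7 of 10 below (48.9%). Replicate 4 was lower than replicate 3 for 8 of 10 factors in controls and for 10 of 10 in Irf2_AhcKO, where 50.5% and 46.6% of all features were, and for 8 in both groups, where 28.9% were. Atoh1 and Gfi1 were the exceptions among controls.

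The difference between replicates 4 and 3 reached -1.32 for Foxa3 in controls, and it was -0.62 and -0.61 for Spdef in the 2 groups. Each is a difference between 2 single arrays and varies more than a difference between group means. The Xist and Ddx3y levels given above moved with the contrast between replicates 4 and 3, and the part of sex in it was not tested. On slide 1, 9 of 10 factors were below the slide mean on Irf2_AhcKO replicate 1 (46.5% of all features) and 8 of 10 above it on control replicate 1 (52.9%). These counts are not separate from the negative differences on slide 1 given above.

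**Figure D3:**
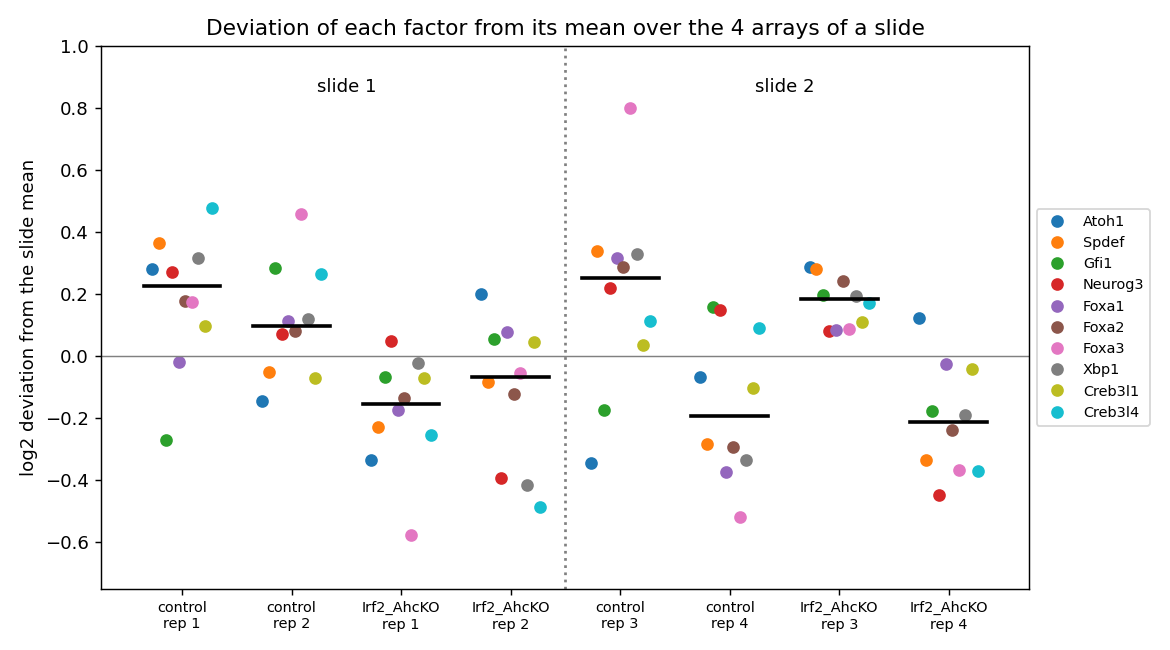
Deviation of each of the 10 factors (points, 1 colour per gene) from its own mean over the 4 arrays of a slide, on the log2 scale, with the median over the factors as a black bar. All 10 points lie above 0 on Irf2_AhcKO replicate 3, and the medians of replicate 4 lie below 0 in both groups.

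The products of the secretory lineages, read as the mean log2 level over a list, varied between the arrays as well. Goblet cell products lay between 2.01 and 2.66 in controls and between 1.87 and 2.52 in Irf2_AhcKO, Paneth cell products between 2.25 and 2.85 and between 1.67 and 3.28, and enteroendocrine products between -1.63 and -0.90 and between -1.76 and -0.78. The 10 factors lay between 0.88 and 1.22 in controls and between 0.67 and 1.21 in Irf2_AhcKO. Irf2_AhcKO replicate 3 had the highest Paneth and enteroendocrine level of all arrays, and Irf2_AhcKO replicate 2 the lowest of both. For the enteroendocrine list that low rested on Nts, a gene well above background on 4 of 8 arrays. Nts stood at -6.59 on Irf2_AhcKO replicate 2 and at -2.78 on control replicate 1, the next lowest array. Tph1, above background on 6 arrays, went the other way on these arrays, at -4.91 and -6.67. The highest goblet level, on control replicate 4, rested on Retnlb, a gene well above background on 4 of 8 arrays. Without it the highest was Irf2_AhcKO replicate 3 at 3.07, next to 3.01 on control replicate 4, a view chosen after the values were seen. In bulk sorted cells, fewer cells of a lineage and less RNA per cell cannot be told apart, and the part of secretory cells inside the gate in these differences was not tested.

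**Figure D4:**
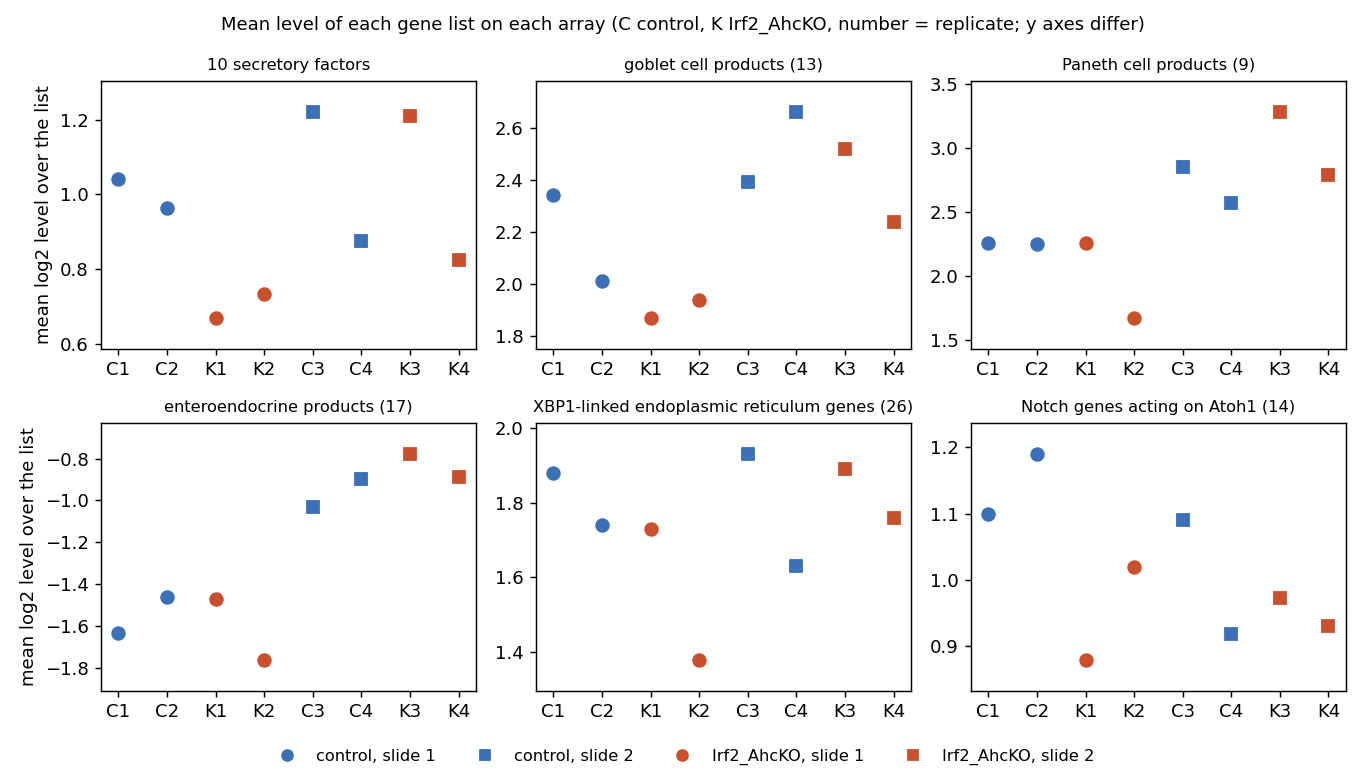
Mean log2 level over each gene list on each array (C control, K Irf2_AhcKO, number = replicate; circles slide 1, squares slide 2), for the 10 factors and 5 related lists, each with its own y axis. Enteroendocrine products are higher on all 4 arrays of slide 2 than on all 4 of slide 1, and the 10 factors are highest on replicate 3 of both groups.

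No gene of the lists around these factors passed over all features, where 0.0983% did. An unadjusted limma p below 0.05, as 11.7% of all features had, was found for 2 of 13 goblet, 1 of 9 Paneth and 4 of 17 enteroendocrine products, 4 of 14 Notch genes and 8 of 14 enterocyte genes. Of 13 goblet products, 12 had a negative difference (50.5% of all features did), with a median of -0.15. Klk1, a kallikrein protease, had -0.99 (SE 0.28, limma adjusted p = 0.298), and Muc2, the main gel-forming mucin and a target of the programme, had -0.30 (SE 0.12, adjusted p = 0.409). Zg16, a lectin of the mucus, stood at -0.26 and Fcgbp, a mucus protein, at -0.16. Of 9 Paneth products on the array, 3 were negative and 6 positive, with Mmp7, the protease that activates defensins, at 0.52 (SE 0.13, limma adjusted p = 0.251). On slide 1, 7 of the 9 were negative with a median of -0.18 (51.9% of all features were negative). On slide 2, 0 of 9 were, with a median of 0.285 (49.2% of all features). Nupr1 stood at 0.34, Clps, the pancreatic colipase gene, at -0.34 and Mptx1 at -0.67, the last with -1.61 on slide 1 and 0.27 on slide 2.

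Enteroendocrine products went both ways while Neurog3 was at -0.36. Of 17, 8 were positive and 9 negative, with a median of -0.03. Chga, the granule protein chromogranin A, had control levels of -0.91, -0.34, 0.02 and -0.11 and Irf2_AhcKO levels of 0.34, 0.29, 0.71 and 0.21, so its groups did not overlap (3.85% of all features). Its difference was 0.72 (SE 0.18, limma adjusted p = 0.251). Pcsk1, a prohormone convertase, stood at 0.60, Tac1, the tachykinin precursor, at 0.54 and the incretin gene Gip at -0.75. Among 24 other regulators, 19 were measured, 10 of them positive and 9 negative. An unadjusted limma p below 0.05 was found for 0 of 19, where 11.7% of all features had it. Fev, which acts after Neurog3 in serotonin cells, stood at 0.33, and Hes6, an antagonist of HES1, at -0.29, Id1 at -0.25 and the progenitor factor Sox9 at -0.22. Pax6, Rfx6 and Runx1t1 were not well above background on any array.

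Of the Notch genes that act on Atoh1, 14 of 15 were measured, 5 with a positive and 9 with a negative difference, and a median of -0.10. Jag1, a Notch ligand, had control levels of -0.12, -0.10, -0.10 and -0.60 and Irf2_AhcKO levels of -0.72, -0.63, -0.91 and -0.96, without overlap (3.85% of all features). Its difference was -0.58 (SE 0.11, limma adjusted p = 0.168). Nrarp, a target and inhibitor of Notch, had -0.63 (SE 0.13, limma adjusted p = 0.176), and the Notch target repressor Hes5 had 0.30 (SE 0.07, adjusted p = 0.247), also without overlap. Hes1, given because its protein is named above as a repressor of the programme, stood at -0.02 (SE 0.13). The coactivator Maml1 stood at -0.33.

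The endoplasmic reticulum genes linked to XBP1 had 19 negative and 7 positive differences among 26 (50.5% of all features were negative), with a median of -0.12. An unadjusted limma p below 0.05 was found for 0 of 26, where 11.7% of all features had it. On slide 1, 20 of the 26 were negative with a median of -0.27 (51.9% of all features). On slide 2, 10 of 26 were, with a median of 0.03 (49.2% of all features). Sel1l, a subunit of the degradation machinery, stood at -0.31, the chaperone partner Dnajc3 at -0.24, Derl2 at -0.21 and Derl1 at 0.18. Of the CREB3 family and its proteases, Creb3l2 stood at -0.57, Creb3l3 at -0.82, and the site proteases Mbtps1 and Mbtps2 at -0.04 and 0.07. Creb3l3 was dim, detected on 3 arrays of each group. Of 14 enterocyte genes, the fate opposed to the secretory one, 9 were negative and 5 positive, with a median of -0.55. Fabp2 at -0.50, Rbp2 at -0.88, Fabp1 at -0.59 and Alpi at -0.79 had the smallest p, and in each the groups did not overlap (3.85% of all features). Chosen after their values were seen, Anpep, a brush border peptidase, stood at 0.33 with groups that did not overlap in the opposite direction, and Slc5a1, the sodium-glucose transporter, at 0.38.

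Markers of other cells were read beside these values. Tuft cell markers, a lineage that can also arise from secretory progenitors, lay between -1.14 and -0.73 as a list in controls and between -1.08 and 0.15 in Irf2_AhcKO, highest on replicate 3, the array on which all 10 factors were above their slide mean. Of 7 tuft markers, 6 had a positive difference (50.5% of all features were negative), with a median of 0.43. Trpm5, a taste-type channel, stood at 0.75 (SE 0.22, limma adjusted p = 0.311) without overlap (3.85% of all features). Dclk1, a kinase, stood at 0.68, Alox5ap at 0.0087 and Pou2f3 at -0.10, the 1 negative marker. Leukocyte markers, of which 10 of 12 were measured, lay between -2.07 and -1.25 and between -1.65 and -1.40. Stem cell markers lay between 2.80 and 3.00 and between 2.74 and 2.98, epithelial markers between 3.26 and 3.73 and between 3.31 and 3.61. Single markers moved both ways. Stem cell markers had 8 negative and 5 positive differences (Gkn3 -0.64, Tnfrsf19 0.56), and epithelial markers 4 and 2 (Krt19 -0.43). Leukocyte markers had 4 negative and 6 positive (Cd79b, above background on 6 arrays, 1.33). An unadjusted limma p below 0.05 was found for 1 of 13, 1 of 6 and 3 of 10, where 11.7% of all features had it. Their part in the values of the secretory factors was not tested.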

How the data were processed

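RNA of 8 samples was hybridised to 1-colour Agilent arrays. Per the labels' protocols, RNA was amplified with a whole-transcriptome kit and labelled with Cy3, which can distort single transcripts. The deposited scanner files hold intensity per spot. Per the file headers, Agilent Feature Extraction 11.5.1.1 had subtracted background and detrended it. The series value table of the authors is that intensity multiplied by a factor per array (6.41 to 6.90), linear and uncentred, with column medians of 230, 231, 207 and 222 for control replicates 1 to 4 and 237, 246, 218 and 226 for Irf2_AhcKO. The origin of the factor is unknown.

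Log2 processed signals were scaled by subtracting the 75th percentile of each array (59305 spots without controls) and averaged per probe after removal of outlier spots. Of 55681 probes, 28331 were named through a RefSeq table of GRCm38.p6, and the others kept the identifier of the file. The array was annotated on mm9, so no array coordinates are given. Probes well above background on at least 4 of 8 arrays were kept, and the brightest represented its gene. The two-sided limma 3.58.1 fit (R 4.3.3) spanned all 25433 features, had slide as a covariate and was tested on simulated data. Same-numbered arrays shared a slide, and their deviations correlated across features (r 0.46 to 0.53). With slide means removed r was 0.04 on slide 1 and 0.21 on slide 2, so on slide 1 little beyond the slide was shared. Pairing by replicate number, which has only this basis, was fitted as a block in an alternative. Other alternatives changed background, scaling, filter, probe choice, variance model and slide term, or left out arrays. Normexp used the median spot signal, because the mean signal planned for it was not in the files used here.

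Named genes were the 10 factors, the 4 genes of smallest p in each list and any that passed, and the 5 closest to Atoh1. The members and lists were chosen with earlier results of these data known.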

Additional observations from a re-analysis of the deposited data

Results flagged for a closer look

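In groups of 4, an array was singled out when its gap to the nearest other array was a large share of the group's range by Dixon's 95% value (0.829). This was met in 7 of 140 groups examined, and chance flags about 1 in 20. Among the secretory factors it was met in 1 of 20 groups, for Foxa2, where control replicate 3 stood at 3.76 and the other controls between 3.16 and 3.26. Control replicate 4 was low for Jag1 (-0.60, nearest -0.12) and for Hes6 (1.81, nearest 2.59). Control replicate 2 was low for Klk1 (1.08, nearest 1.96). Irf2_AhcKO replicate 2 was low for Creb3l3 (-6.19, nearest -4.34), replicate 4 was low for Cdh1 (0.91, nearest 1.08), and replicate 1 was high for Cd79b (-2.73, nearest -2.96).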

How the results depend on the processing

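In the 21 alternatives run, none of the 10 secretory factors passed between genotypes. Spdef, Neurog3, Foxa3 and Creb3l4 were negative in all 21, from -0.34 to -0.06, -0.46 to -0.23, -0.76 to -0.23 and -0.74 to -0.20. Signs turned for values near 0. Foxa1 was 0.00064 with normexp, 0.0060 with quantile normalization, 0.011 from the deposited series table and 0.056 on slide 2 alone. Gfi1 was -0.0089 with quantile normalization, -0.024 centred on the median and -0.011 on slide 1 alone. Creb3l1 was -0.0076 centred on the median and -0.027 on slide 1 alone. Atoh1 was -0.14 on slide 1 alone, and Foxa2 and Xbp1 were 0.0046 and 0.0045 on slide 2 alone. Leaving out 1 array gave -0.10 to 0.12 for Gfi1, -0.17 to 0.10 for Foxa1, -0.020 to 0.063 for Creb3l1, 0.027 to 0.30 for Atoh1, -0.34 to -0.08 for Spdef, -0.27 to -0.04 for Foxa2 and -0.39 to -0.09 for Xbp1. Of the factors, the slides told 2 apart rather than 1 with normexp (Xbp1 added) and with a trended variance (Foxa2 added). The cause of these shifts was not tested.

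Over all features, 25 calls became 123 with normexp, 118 with a trended variance, 44 with the slide as a random block, 46 among features above background on all 8 arrays, 7 without a filter, 0 with the replicate block (3295 at an unadjusted limma p below 0.05), and 0 on slide 1 or slide 2 alone (2540 and 1337). Leaving out 1 array gave between 0 and 25. The counts with quantile normalization (21), median centring (20), probe means (21), the deposited table (21) and no slide term (19) stayed close. The replicate block changed no call among the factors. The factors were above background on every array, but its correction mattered: with normexp Creb3l4 was -0.27, Neurog3 -0.23, Spdef -0.12 and Atoh1 0.068.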
